A study of Mus musculus with 12 samples.

Results

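The neurotrophins and the receptors that bind them were examined in the mouse hypothalamus after voluntary alcohol drinking from adolescence into adulthood. The genes were Bdnf, Ntf3, Gdnf, Ntrk2, Ntrk3, Ngfr and Ret, and every non-control probe carrying 1 of these gene names was taken, whatever its signal. This gave 12 probes of 7 genes, which filled 57 spots on each array, out of 41174 probes for 27554 gene names. Male ICR mice, an outbred strain, were 3 weeks old at the start. They drank water alone until day 5 and were then offered either water only or a choice between water and alcohol at 5% or 10%. The stated last day of the experiment was 57 in the design text and 51 in the sample text. RNA was pooled before labelling. The water arm had 9 mice in 3 pools of 3 mice each, and the alcohol arm had 19 mice in 9 pools of 1 to 3 mice, so that a pool was not always the same number of animals. The alcohol pools were labelled as low drinkers, early high drinkers and late high drinkers, with 3 pools in each group. The study's supplement gives the mice from each alcohol concentration for its own pool names, which the labels do not carry, so concentration was not used here. In that list each pool of less alcohol consumption held 3 mice and each pool of more alcohol consumption held fewer. Pool size therefore went with the amount drunk. Each pool was measured on 1 single-colour array, and the pools are numbered here as in the labels.

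Neurotrophins are small secreted proteins that neurons depend on for survival, growth and synaptic change. Each binds a receptor tyrosine kinase of the Trk family, and all of them also bind the p75 receptor encoded by Ngfr. Gdnf belongs to another family of growth factors and signals through Ret together with a co-receptor of the Gfra family. In the hypothalamus Bdnf and its receptor TrkB, the product of Ntrk2, are known for restraining food intake and body weight.

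A probe on this array is a DNA strand of 60 bases, so it reads only the transcripts that hold its target. The positions below are those of the array design, on mm9, and the sequences are given in the sense of the transcript. Bdnf had 1 probe in the last coding exon (A_51_P261991, chr2:109564203-109564262) and 1 far down the long 3′ end (A_52_P384100, chr2:109566470-109566529). The coding sites of Bdnf, Ntf3 (A_52_P525161, chr6:126051915-126051974), Ret (A_51_P324191, chr6:118103903-118103962) and Ntrk3 (A_52_P55706, chr7:85595783-85595842) are shown whole because they show what was counted as each gene. The Ntrk3 coding site is shared by both annotated variants on the array.
Bdnf, coding probe: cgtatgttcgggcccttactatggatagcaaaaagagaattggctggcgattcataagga
Ntf3: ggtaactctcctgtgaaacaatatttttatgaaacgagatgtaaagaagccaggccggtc
Ret: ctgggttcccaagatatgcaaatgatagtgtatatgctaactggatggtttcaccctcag
Ntrk3, shared probe: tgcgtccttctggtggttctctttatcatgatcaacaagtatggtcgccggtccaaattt

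Of the remaining probes, 4 that separate isoforms or carry the Ngfr result are shown by their first 30 bases. Ntrk2 makes a full-length receptor with a kinase domain and a short receptor without it, and the array told their transcripts apart. The full-length form was read at chr13:59230936-59230995 (A_51_P393454). The short form was read by a pair of probes that touch each other, at chr13:59033682-59033741 (A_51_P516012) and chr13:59033742-59033799 (A_51_P516006), which are therefore not independent readings. Ntrk3 had a further probe for transcript variant 2 alone (A_52_P500274, chr7:85445908-85445967). Ngfr was read upstream (A_51_P384968, chr11:95435537-95435596) and downstream, near the end of the transcript (A_52_P236448, chr11:95430211-95430270), and Gdnf by a single probe (A_51_P147777, chr15:7786968-7787027).
Ntrk2, full-length probe, first 30 bases: tcaattgatacctatgtgcacgtgtgcaga
Ntrk2, short-form probe, first 30 bases: gttcaaatatagaatcgaagtgaaatctca
Ntrk3, variant 2 probe, first 30 bases: tgcagcttttcaagttctttcccatgacct
Ngfr, downstream probe, first 30 bases: tccagctggcgactatgagatccagacctc

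Values below are log2 signals after each array's 75th percentile was subtracted, so 0 is the 75th percentile of an array, and 1 unit is a doubling of signal. Levels of different probes are not comparable on this scale, because each probe has its own brightness. The 75th percentile ran from 1512 to 1853 signal units over the 12 arrays, and the share of non-control spots well above background lay between 67.0% and 79.3%. Of 15 hypothalamic marker genes on the array, 13 were well above background on all 12 arrays and 1, Otp, on none. The arrays lay on 3 slides of 4 arrays. All water pools sat on slide 1 beside low drinker pool 1. Low drinker pools 2 and 3 shared slide 2 with pools 1 and 2 of the early high drinkers, and pool 3 of that group was on slide 3 beside every late high drinker pool. Slide 1 was scanned on a separate day. Group and slide therefore overlapped almost wholly, and over 29521 probes measured on all arrays the median share of variance lying between slides was 31.7%, against 35.5% between the 4 groups. Such shares, here and below, cannot be compared directly. Parting the arrays into 4 sets takes a larger share than parting them into 3 even without any difference. In bulk tissue, fewer cells of a type and less RNA in each cell cannot be told apart. Nothing in the labels says that pools were independent in any further way, so p-values measure the spread between these pools only.

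None of the 12 probes passed an adjusted p of 0.05 in any of 7 comparisons by limma (Benjamini-Hochberg adjustment over all probes tested). At that threshold the share of all probes called was 0.218% for low drinkers against water, 0.0221% for high against low drinkers, 0.00632% for the 4 groups and 0% for the other four comparisons. The comparison of all 9 alcohol pools with the 3 water pools, which asks what alcohol drinking of any pattern did, gave 0 of 12 member probes at an unadjusted p under 0.05, where 5.53% of 32376 probes and 0 at an adjusted p were found over the whole array. The F test over the 4 groups gave 2 of 12, Ngfr upstream and Ret, where 14.4% of 31622 probes were called in the same way. The comparisons with water share the same 3 water pools and are not independent of each other. Over the 12 member probes the median difference between alcohol and water was -0.03, beside 0.03 over all probes.

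**Figure D1:**
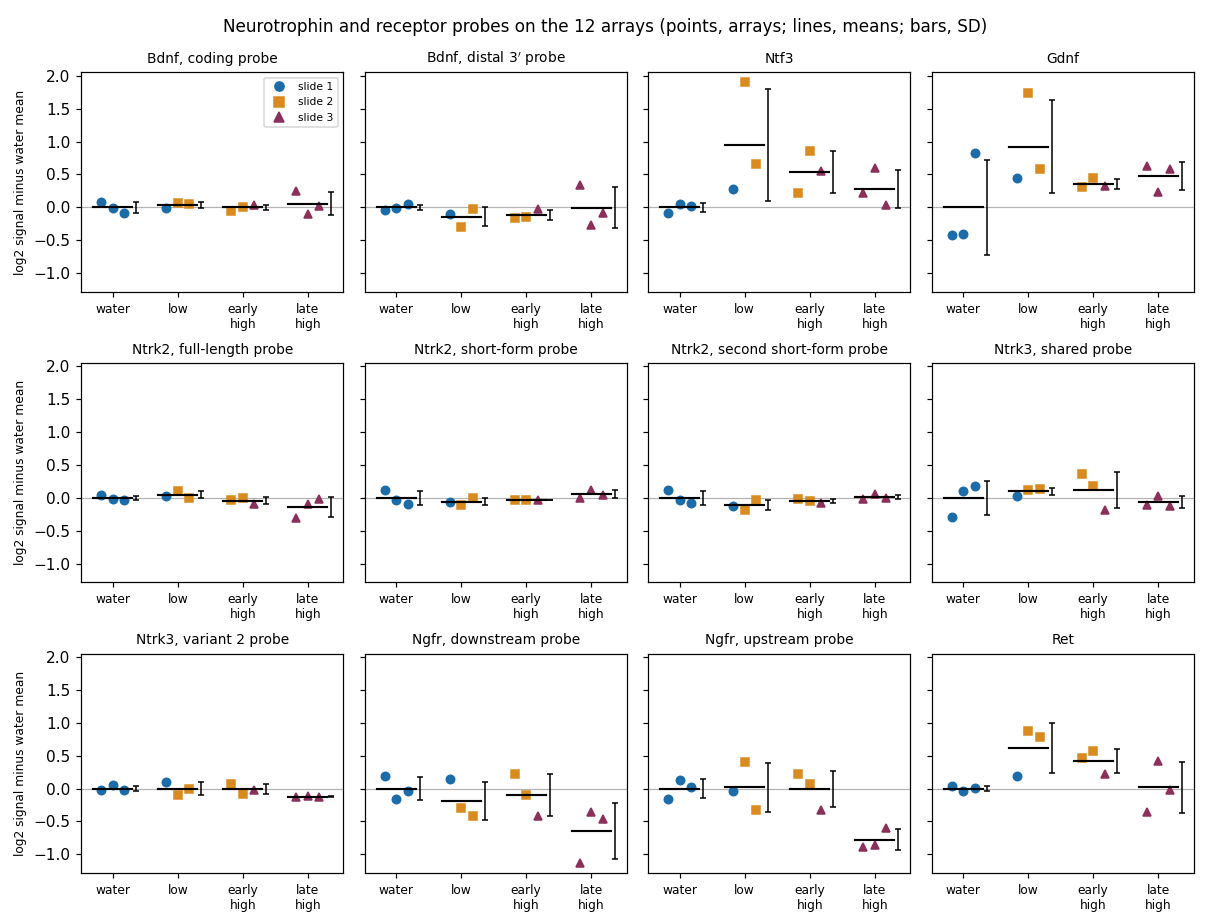
Scaled log2 signal of the 12 probes minus each probe's water mean (vertical axes), by group (horizontal axes); points are the 12 arrays, marked by slide, lines are means and bars are SD of 3 pools. Bdnf and Ntrk2 stay close to 0 in most pools, Ntf3 and Gdnf are highest in low drinker pool 2, and both Ngfr probes are lowest in late high drinkers.

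Among the ligands, Bdnf, the most studied neurotrophin of the adult brain, varied little between pools. Its coding probe, measured by 10 spots on each array, read 0.57, 0.49 and 0.41 in the water pools and 0.48, 0.56 and 0.54 in low drinkers. It read 0.44, 0.50 and 0.53 in early high drinkers and 0.73, 0.39 and 0.51 in late high drinkers. The groups overlapped throughout, and late high drinker pool 1 was the highest of all 12 pools. The difference between alcohol and water was 0.03 (SE 0.07, n = 9 and 3, limma adjusted p = 0.937), a signal ratio of 1.02. The 4 group means lay between 0.49 and 0.54, and no neighbours in that order were separated beyond their SD. The distal 3′ probe gave -0.09 (SE 0.11, limma adjusted p = 0.876) for alcohol against water, with 1 of 9 alcohol pools above the water mean. That pool was again late high drinker 1, at -2.72, beside a range of -3.35 to -3.07 in the other 8 alcohol pools. The distal minus coding difference within an array had 28.9% of its variance between the 4 groups.

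Ntf3, which encodes neurotrophin 3, the preferred ligand of TrkC, was dim and lay in all 9 alcohol pools above the water mean. It read -5.49, -5.35 and -5.38 in water pools and -5.13, -3.51 and -4.76 in low drinkers. Early high drinkers read -5.19, -4.55 and -4.86, and late high drinkers -5.20, -4.81 and -5.37. Every low and early high drinker pool was above every water pool, and 1 late high drinker pool was not. Over the whole array 6.9% of 29521 probes had all low drinkers above water, and 10.8% all early high drinkers. Alcohol exceeded water by 0.59 (SE 0.31, limma adjusted p = 0.819), and low drinkers exceeded water by 0.94 (SE 0.36, n = 3 and 3, adjusted p = 0.514). The means ran from -4.46 in low drinkers through -4.87 in early high and -5.13 in late high drinkers to -5.41 in water, and each step between neighbours was smaller than the larger of their SDs. Without low drinker pool 2, which read far above all others, the difference between low drinkers and water was 0.47 (SE 0.21, adjusted p = 1.00). The probe was well above background on 10 of the 12 arrays. Low drinker pool 3 and early high drinker pool 1 were not, so the separation from water counts readings at background.

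Gdnf, a growth factor for dopaminergic and motor neurons, was close to background, with 8 of 12 arrays well above it. It read -6.14, -6.13 and -4.89 in water pools, of which 1 was well above background. The low drinker pools read -5.27, -3.98 and -5.14, the early high drinker pools -5.40, -5.27 and -5.40, and the late high drinker pools -5.10, -5.48 and -5.13. Water pool 3 lay above 8 of the 9 alcohol pools, so the groups overlapped, although all 9 alcohol pools were above the water mean. Low drinkers exceeded water by 0.92 (SE 0.38, limma adjusted p = 0.536), and by 0.52 (SE 0.33, adjusted p = 1.00) without low drinker pool 2. Alcohol as a whole exceeded water by 0.59 (SE 0.32, limma adjusted p = 0.819), and by 0.38 without water pool 1 or 2. The water mean holds pools 1 and 2, both at background, so none of these differences is read as a fold. Without water pool 3, the 1 water array well above background, the difference between alcohol and water was larger. It is not given, since both remaining water pools were at background.

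Ret, the kinase through which Gdnf signals, was not well above background on any water or low drinker array, counting an array where most of its 10 spots were. Of its 120 spots 26 were well above background and 100 passed the signal to noise filter, with as few as 3 of 10 kept on an array. The signals kept read -6.20, -6.28 and -6.23 in water pools and -6.05, -5.36 and -5.45 in low drinkers. Early high drinkers read -5.78, -5.66 and -6.01, and late high drinkers -6.59, -5.81 and -6.25. The low and early high drinker pools were above every water pool, but no fold is given for the low drinkers, since both groups were at background. With every spot kept, low drinker pool 3 read -6.25 and early high drinker pool 1 read -6.40, where water pools 1, 2 and 3 read -6.66, -6.36 and -6.23, so both groups then overlapped water. Ret was called at an unadjusted limma p under 0.05 for low drinkers against water (adjusted p = 0.514) and for the 4 groups (adjusted p = 0.333). These calls rest on the spots kept by the filter, mostly at background, and are not read as a difference in Ret. Of the variance of Ret, 67.9% lay between slides and 56.0% between groups.

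Low drinkers thus gave 3 of 12 probes at an unadjusted p under 0.05 against water, Ntf3, Gdnf and Ret, all higher, where 9.08% of all probes were called, 8.33% higher and 0.749% lower. These 3 probes are the only members not well above background on every array apart from the upstream Ngfr probe. With slide or scan day as a term, or with only probes well above background on all arrays, a filter that leaves these probes out, 0 of 12 were called, and with quantile normalization the fitted sign of Ret turned. Leaving out water pool 1 left Ret alone called, and leaving out water pool 2, low drinker pool 3 or late high drinker pool 3 left 2 of the 3. Without low drinker pool 2 none of them was called, and over all probes 1105 were called in place of 2870. Without low drinker pool 1, the low drinker pool that shared a slide with water, Ntf3 and Ret passed an adjusted p of 0.05 (adjusted p = 0.0485 and 0.0321), as did 2482 of 30662 probes. That fit set low drinkers of slide 2 alone against water of slide 1, and Ret was at background in both groups. Within slide 1, low drinker pool 1 minus the water mean was 0.28 for Ntf3 and 0.45 for Gdnf, and Ret read -6.05 there, above the 3 water pools. The fit with slide as a fixed term gave the same 0.28 (SE 0.44) and 0.45 (SE 0.55), with an adjusted p of 1.00 for all 3 probes. The early high drinkers gave 0 of 12 probes against water (4.7% of all probes).

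The 5 dopaminergic marker genes Th, Slc6a3, Ddc, Pitx3 and Slc18a2 were all well above background on every array. Dopaminergic neurons are known to express Ret. Their summed signal, in multiples of the 75th percentile, was 9.49 to 14.0 in water pools, 18.6 to 20.04 in low drinkers, 16.2 to 24.5 in early high drinkers and 8.37 to 20.4 in late high drinkers. Low and early high drinkers were thus above all water pools in this sum. That was so for Ret only in the spots kept by the filter, and it was not so for Gdnf. Of the 5 genes 3 had an unadjusted p under 0.05 in low drinkers and 3 in early high drinkers against water, all higher, beside 9.08% and 4.7% of all probes, and none an adjusted p under 0.05. Their part in the Ret and Gdnf values was not tested.

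Among the receptors, Ngfr, the p75 receptor that all neurotrophins share, was the member with the largest differences between groups of drinkers. The downstream probe, bright and measured by 10 spots, read 1.33, 0.98 and 1.1 in water pools and 1.28, 0.84 and 0.72 in low drinkers. Early high drinkers read 1.35, 1.04 and 0.72, and late high drinkers 0.01, 0.79 and 0.68. All 3 late high drinker pools lay below all 3 water pools, and 1 of them, pool 1, lay far below every other array. The upstream probe, measured by 1 spot and well above background on 11 of 12 arrays, read -5.10, -4.82 and -4.92 in water and -4.98, -4.54 and -5.27 in low drinkers. It read -4.73, -4.87 and -5.26 in early high drinkers and -5.83, -5.80 and -5.54 in late high drinkers. Here the late high drinkers lay below all 9 other pools. This probe was dim, at 32.3, 32.9 and 39.9 signal units in late high drinkers. Low drinker pool 3, the array not well above background, read 39.6 units on another slide.

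Late high drinkers were lower than water by 0.78 at the upstream probe (ratio 0.584, SE 0.19, n = 3 and 3, limma adjusted p = 0.126) and by 0.65 at the downstream probe (ratio 0.638, SE 0.24, adjusted p = 0.231). These were the 2 of 12 member probes called at an unadjusted p under 0.05 in that comparison, where 15.9% of all probes were called, 8.94% lower. Late high drinkers were also lower than early high drinkers by 0.77 (SE 0.19, adjusted p = 0.314) and 0.55 (SE 0.24, adjusted p = 0.391). These too were 2 of 12, beside 12.4% of all probes. Without late high drinker pool 1 the downstream difference was -0.30 (SE 0.21, adjusted p = 0.702), and it was no longer called without that pool, early high drinker pool 1 or 2, low drinker pool 2 or any 1 water pool. Exact permutation of 3 against 3 pools cannot go below 0.1, which both probes reached against water. Over the 4 groups an exact permutation test gave p = 0.0227 for the upstream probe and 0.132 for the downstream probe. The remaining groups did not stand apart, with means of 1.14 in water, 1.04 in early high drinkers and 0.95 in low drinkers at the downstream probe, steps smaller than their SDs of 0.18 to 0.32. The upstream probe was also the 1 of 12 called between high and low drinkers (-0.41, SE 0.17, adjusted p = 0.313), where 14.7% of all probes were. That difference was -0.21 (SE 0.15, adjusted p = 0.716) without low drinker pool 2, and the call was also lost without low drinker pool 1, early high drinker pool 3 or late high drinker pool 1 or 2.

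The upstream minus downstream difference of Ngfr had 16.7% of its variance between groups. Slides took 71.1% of the variance of the upstream probe and 54.2% of that of the downstream probe. On slide 3 the late high drinkers were below early high drinker pool 3 by -0.46 and -0.23. The downstream value rested on late high drinker pool 1, since pool 2 (0.79) lay above and pool 3 (0.68) just below that early high drinker pool (0.72). With slide as a fixed term the difference from water was -0.38 (SE 0.43, adjusted p = 0.843) upstream and turned to 0.32 (SE 0.48, adjusted p = 0.885) downstream, resting on the single low drinker pool that ties slide 1 to the rest. Without late high drinker pool 1 the downstream difference from water was -0.41 (SE 0.21, adjusted p = 0.475), no longer called at an unadjusted p under 0.05 (nor without water pool 1, at -0.55), and the upstream one -0.72 (SE 0.23, adjusted p = 0.302).

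**Figure D2:**
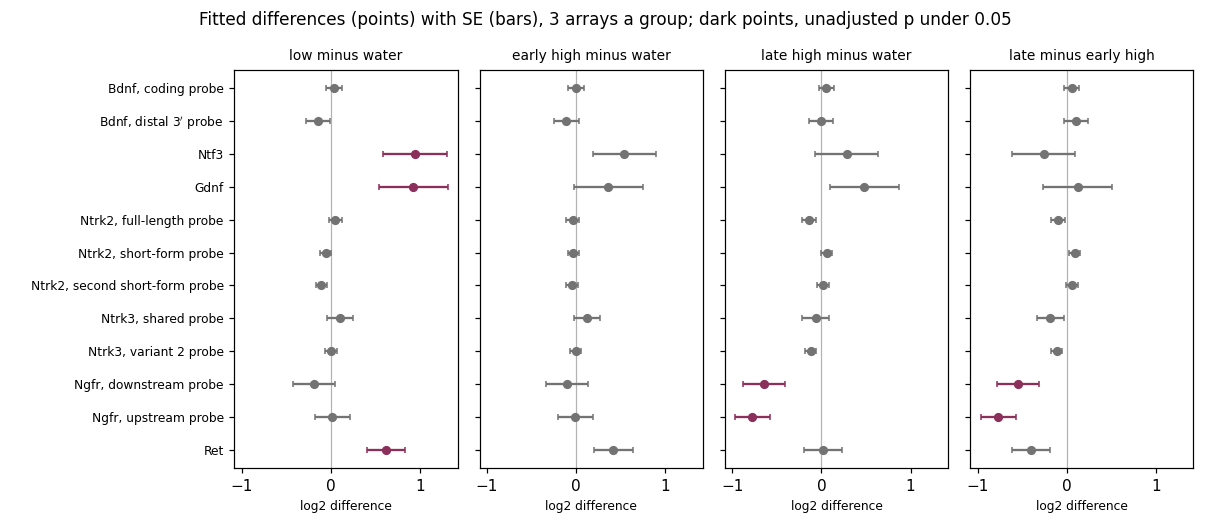
Fitted log2 difference (horizontal axes) of each of the 12 probes (rows) in 4 comparisons; points are limma estimates from 3 arrays a group, bars are SE, and dark points have an unadjusted p under 0.05. Ntf3, Gdnf and Ret are dark only for low drinkers against water, and the Ngfr probes only where late high drinkers are compared. Water and low drinker arrays were at background for Ret, and all water arrays but 1 for Gdnf, so their points against water are not folds.

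The pattern of the downstream Ngfr probe over the 12 arrays was most like that of Slc5a7, the choline transporter of cholinergic neurons, among 22560 probes of named genes well above background on all arrays (Pearson r = 0.94, Spearman rho = 0.83, n = 12 arrays). The r was 0.92 within slides and 0.89 without the 2 arrays farthest from the Ngfr median. Tacr3, a tachykinin receptor, followed (r = 0.92). These are descriptions of the highest of many correlations, over arrays that share slides. Slc5a7 also stood in a list of genes that mark basal forebrain cholinergic neurons, cells that lie next to the hypothalamus and are known for high levels of p75. Since Slc5a7 was picked for its likeness to Ngfr, its own difference between groups is no separate result. Late high drinkers were lower than water by 0.80 for Lhx8, a transcription factor of these neurons (SE 0.22, limma adjusted p = 0.151). Of the 5 genes in the list other than Slc5a7, 2 had an unadjusted p under 0.05 in this comparison, Lhx8 and Chat, both lower, beside 15.9% of all probes, 8.94% lower. Chat was well above background on 4 of 12 arrays. The summed signal of the list, Slc5a7 included, was 1.44 to 2.27 in water, 1.47 to 2.11 in low drinkers, 1.43 to 1.60 in early high drinkers and 0.887 to 1.34 in late high drinkers, so that late high drinkers lay below all other pools. This sum is mostly that of its brightest genes, Lhx8 and Slc5a7, and is no separate result. The part of these cells in the Ngfr values was not tested.

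**Figure D3:**
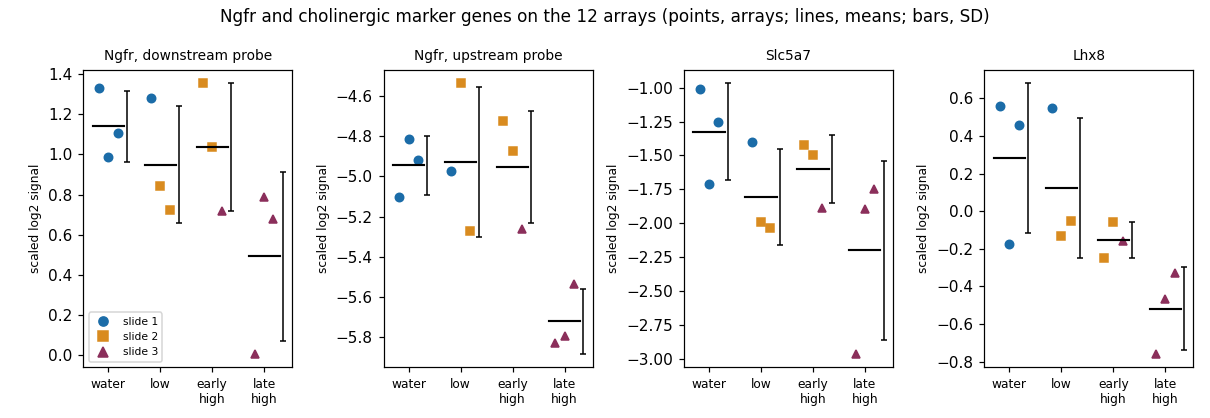
Scaled log2 signal (vertical axes, a separate scale for each panel) of both Ngfr probes, Slc5a7 and Lhx8 by group; points are the 12 arrays marked by slide, lines are means and bars are SD of 3 pools. Late high drinker pool 1 is lowest in all 4 panels, and for the Ngfr upstream probe and Lhx8 all late high drinker pools lie below all others.

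Ntrk2, which encodes TrkB, the Bdnf receptor, was bright, and its group means lay close together. The full-length probe had means of 3.47 (SD 0.03), 3.52 (SD 0.06), 3.43 (SD 0.05) and 3.33 (SD 0.15) in water, low, early high and late high drinkers, with 3 pools each. The short-form probe had means of 3.31 (SD 0.11), 3.25 (SD 0.05), 3.27 (SD 0.003) and 3.36 (SD 0.06), and the second short-form probe of 3.62, 3.51, 3.57 and 3.63. The full-length probe had 49.8% of its variance between the 4 groups (exact permutation p = 0.0451, unadjusted) and 48.3% between slides (exact permutation p = 0.0204), while limma gave an adjusted p = 0.459 over the 4 groups. Alcohol differed from water by -0.04 (SE 0.07), -0.01 (SE 0.06) and -0.05 (SE 0.06) at these 3 probes, with limma adjusted p-values of 0.908, 0.978 and 0.874. Of the 9 differences of a drinker group from water at these probes, the largest was that of the full-length probe in late high drinkers (-0.14, SE 0.08, adjusted p = 0.403).

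The 2 forms were also read against each other on the same array, a measure chosen after the values were seen and given here as a description with no test. The short minus full-length difference was -0.08, -0.18 and -0.22 in water pools and -0.26, -0.38 and -0.17 in low drinkers. It was -0.17, -0.20 and -0.09 in early high drinkers and 0.15, 0.05 and -0.10 in late high drinkers. The late high drinkers were the highest group and the low drinkers the lowest, with pools that overlap between neighbouring groups. The share of variance between groups was 66.8% and that between slides 56.3%. The second short-form probe gave means of 0.15 in water, -0.004 in low, 0.15 in early high and 0.31 in late high drinkers, with 64.2% between groups and 42.6% between slides. These are 2 readings of 1 short form. Within slide 3, late high drinker pools 1 and 2 lay above early high drinker pool 3 and pool 3 lay level with it at both short-form probes. Within slide 2, low drinker pool 2 lay below both early high drinker pools and low drinker pool 3 lay between them. Without late high drinker pool 1 the late high drinkers exceeded water by 0.14 in place of 0.20 at the short-form probe and by 0.09 in place of 0.15 at the second one, which is over 1.5 times less in the second case.

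**Figure D4:**
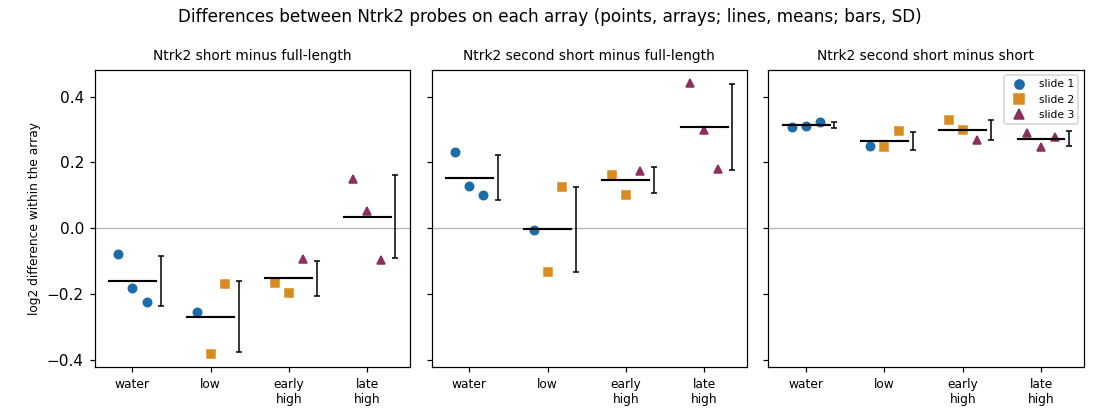
Log2 difference between pairs of Ntrk2 probes on the same array (vertical axis) by group; points are the 12 arrays marked by slide, lines are means and bars are SD of 3 pools. Both short-form probes stand highest against the full-length probe in late high drinker pool 1, while the 2 short-form probes keep a difference of 0.25 to 0.33 to each other.

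The pattern of the second short-form probe, the brightest of Ntrk2, was most like that of Ndrg1 (Pearson r = 0.91, Spearman rho = 0.87, n = 12 arrays, r = 0.93 within slides), a gene of oligodendrocytes and other glia among other cells, followed by 2610110G12Rik (r = 0.89). That of the coding Bdnf probe was most like that of Hsph1, a heat shock chaperone (r = 0.91, rho = 0.89, and 0.75 without the 2 arrays farthest from the Bdnf median), followed by Ube2q1, a ubiquitin-conjugating enzyme (r = 0.88). Astrocytes are known to carry mostly the short form of TrkB. The summed signal of 7 astrocyte markers, all well above background on every array, was 74.3 to 80.5 in water, 73.0 to 79.0 in low drinkers, 73.4 to 76.9 in early high drinkers and 76.6 to 80.8 in late high drinkers. That of 7 oligodendrocyte markers was 204 to 226, 219 to 234, 233 to 246 and 223 to 263 in the same order. Their part in the Ntrk2 values was not tested.

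Ntrk3, which encodes TrkC, the receptor of neurotrophin 3, was also close to level. The variant 2 probe read 2.75, 2.83 and 2.75 in water pools and 2.88, 2.68 and 2.77 in low drinkers. It read 2.85, 2.70 and 2.76 in early high drinkers and 2.65, 2.67 and 2.65 in late high drinkers. The late high drinker pools lay below all 9 other pools by a narrow margin. The same was true of the upstream Ngfr probe, which made 2 of 12 probes below all early high drinkers (13% of all probes). The difference from water was -0.12 (SE 0.06, limma adjusted p = 0.399) for the variant 2 probe. With both Ngfr probes this made 3 of 12 probes with all late high drinkers below all water pools, beside 13.5% of 29521 probes over the array. The shared coding probe did not separate the groups, with means of 0.95 (SD 0.25) in water and 0.89 (SD 0.09) in late high drinkers. The variant 2 minus shared difference had 8.32% of its variance between groups. The pattern of the variant 2 probe was most like that of Usp11, a deubiquitinase (Pearson r = 0.92, Spearman rho = 0.92, n = 12 arrays), followed by Cbara1 (r = 0.88).

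The other genes of the pathway were taken as 110 genes on the array in 7 lists, of which 108 were tested, with 1 probe for each. None had an adjusted p under 0.05 in any comparison by limma. At an unadjusted p under 0.05, 2 of 108 were called between alcohol and water, both higher, which is 1.85% beside 5.53% over the array. The genes were Sorcs2, a sorting receptor that binds neurotrophin precursors (0.23, SE 0.10, adjusted p = 0.819), and Cpe, which takes part in sorting of peptide precursors (0.10, SE 0.05, adjusted p = 0.819). Late high drinkers against water gave 14 of 108, 5 higher and 9 lower, which is 13.0% beside 15.9% over the array. The largest part came from Trk adaptors and signalling, with 2 of 40 higher and 6 lower and a list median of -0.04. Lower were Plcg1, the phospholipase that docks on Trk receptors (-0.52, SE 0.15, adjusted p = 0.153), Nras (-0.44, SE 0.14, adjusted p = 0.178) and Rps6ka1, a kinase downstream of Ras (-0.38, SE 0.09, adjusted p = 0.119).

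In the list of genes around p75, 1 of 20 was higher and 2 lower in late high drinkers than in water at an unadjusted p under 0.05, beside 15.9% of all probes, which also stands beside the counts of the lists that follow. The higher gene was Rtn4r, the Nogo receptor that pairs with p75 (0.33, SE 0.15, adjusted p = 0.311). The lower genes were Rtn4, which encodes Nogo (-0.21, SE 0.09, adjusted p = 0.313), and Rhoa, a GTPase that p75 acts on (-0.40, SE 0.11, adjusted p = 0.149). In the GDNF family 1 of 8 tested genes was called, Sdc3, a syndecan that binds Gdnf (0.28, SE 0.07, adjusted p = 0.122). Of 7 genes that regulate Bdnf 1 was called, Npas4, an activity-dependent transcription factor that acts on Bdnf (-1.38, SE 0.30, adjusted p = 0.110), while Bdnf itself differed by 0.05 (SE 0.09, adjusted p = 0.801) in the same comparison. Of 14 genes for processing and sorting 1 was called, Furin, a protease that cleaves neurotrophin precursors (0.20, SE 0.07, adjusted p = 0.237). None of 16 activity and Trk response genes was called there. Of these 16, 4 were called at an unadjusted p under 0.05 between late and early high drinkers, beside 12.4% of all probes. Dusp4, Dusp6 and Junb were higher in late high drinkers and Fosb lower, and none passed an adjusted p of 0.05 (the lowest was 0.314, limma).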

How the data were processed

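Total RNA of 12 pools was labelled with Cy3 and hybridised to Agilent 4x44K mouse arrays. The authors deposited scanner output whose processed signal intensity is corrected for background, per the file headers by Feature Extraction 10.5.1.1. They also deposited a table of intensity per probe, which equalled the mean processed signal of a probe's spots within a ratio of 0.001 for at least 99.4% of 41250 probes and was not scaled between arrays. Here log2 of the processed signal minus the array's 75th percentile was used. Spots marked as nonuniform outliers or with a signal under 2 times its error were left out, and repeated spots of 1 probe were combined as their mean. The fit of alcohol against water took probes with a value on 2 of the 3 water and 5 of the 9 alcohol arrays or more, and the fit of the 4 groups those with a value on 2 arrays or more in each. Both fits were by limma 3.58.1 in R 4.3.3 without covariates, and p-values were adjusted by Benjamini-Hochberg over all probes tested. Exact permutation tests were two-sided for pairs of groups. The scripts were tested on simulated data. The array number limits the precision.

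All probes of the 7 genes are described, the 2 most alike genes are named for the brightest probe of each member that is well above background on all arrays, and pathway genes past an unadjusted p of 0.05 or the brightest may be named. Values of some pathway genes are not reported here. The members and lists were chosen with earlier results of these data known. Marker lists also covered pituitary, thalamus, cortex and hippocampus, striatum, choroid plexus, blood, vessels and neurons, and their summed levels are among the closing observations. The alternatives were another background correction, normalization or filter, slide or scan day as a term, replicate number as a block, leaving out each array, and the methods' t-test.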

Additional observations from a re-analysis of the deposited data

Results flagged for a closer look

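Over the 9 alcohol pools, 6 of the 18 probes and probe differences looked at had 1 pool far from the others, where the gap to the nearest pool as a share of the whole range passed 0.493; chance gives this in about 1 in 20 groups. Late high drinker pool 1 was that pool for 4 of them. It was the highest for Bdnf at the coding probe (gap share 0.514, 0.73 against 0.56 in the next pool) and at the distal probe (0.561, -2.72 against -3.07). It was the lowest for Ngfr at the downstream probe (0.499, 0.01 against 0.68) and for full-length Ntrk2 (0.505, 3.16 against 3.37). Low drinker pool 2 was the highest for Gdnf (0.745, -3.98 against -5.10) and for Ntf3 (0.560, -3.51 against -4.55).

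For short-form Ntrk2, groups of drinkers lay wholly on opposite sides of the water mean. At the short-form probe all low drinker pools lay below it (mean difference -0.06), all early high drinker pools as well (-0.03) and all late high drinker pools above it (0.06), so that low minus late was -0.12 and early minus late -0.088. For early against late, limma gave an adjusted p = 0.606 and the exact permutation test p = 0.1, the smallest that 3 against 3 pools can give, while low against late was not tested. The water pools at this probe read 3.43, 3.27 and 3.22 and spanned most drinker pools, and the sides rest on water pool 1, without which low drinkers differed from water by 0.0027, early high drinkers by 0.03 and late high drinkers by 0.12. For the short minus full-length difference, low drinkers differed from water by -0.11 and late high drinkers by 0.20, a gap of -0.30. For the second short-form probe the same values were -0.16 and 0.15, a gap of -0.31. The differences between groups in these 2 measures, chosen after the values were seen, are descriptions.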

How the results depend on the processing

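At an adjusted p under 0.05 the count of member probes was 0 in each of the 7 comparisons under every alternative, except that leaving out low drinker pool 1 gave 2 for low drinkers against water, so that leaving out each array in turn gave 0 to 2 there. The counts at an unadjusted p under 0.05 were small and moved easily. Leaving out each array gave 0 to 1 for alcohol against water, 1 to 3 for the 4 groups, 0 to 3 for low drinkers, 0 to 1 for early and 1 to 3 for late high drinkers against water, 0 to 2 for high against low drinkers and 1 to 3 for late against early. Alcohol against water had 1 in place of 0 with quantile normalization, no scaling between arrays or the replicate block. The 4 groups had 1 in place of 2 with normexp background correction, quantile normalization, no scaling, the authors' table, no filter on low values or slide as a random block, and 0 with only probes well above background on all arrays or slide as a fixed block. That filter, called only bright probes below, leaves out Ntf3, Gdnf, Ret and the upstream Ngfr probe. Calls of these probes could not recur under it, here or in the other comparisons. Low drinkers against water had 1 in place of 3 with the authors' table or the methods' t-test, and 0 with only bright probes, slide as a fixed block or scan day as a block. Early high drinkers had 2 with the methods' t-test. Late high drinkers against water had 1 in place of 2 with no scaling, the authors' table, only bright probes, slide as a random block or scan day, and 0 where slide was a fixed term. High against low drinkers had 4 in place of 1 with normexp, 2 with scan day and 3 with the replicate block, and 0 with only bright probes, slide as a fixed or random block or the t-test. Late against early had 1 in place of 2 with the authors' table, no filter, only bright probes, slide as a random block, the replicate block or the t-test, and 0 where slide was a fixed term. The cause of these moves was not tested.

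Direction turned where slide or scan day was a term, which leaves low drinker pool 1 as the tie to water. Alcohol minus water was then -0.012 for coding Bdnf, 0.14 for downstream Ngfr, 0.037 for full-length Ntrk2 and 0.11 for Ntrk3 variant 2, and late high drinkers minus water was 0.32 for downstream Ngfr with slide as a term. Quantile normalization turned the sign of Ret, at -0.087 for alcohol and -0.39 for low drinkers against water, where water and low drinker arrays were at background and neither value is a fold. Leaving out each array gave alcohol minus water at -0.010 to 0.070 for coding Bdnf, -0.090 to 0.15 for the shared Ntrk3 probe, -0.086 to 0.011 for the second short-form Ntrk2 probe and -0.054 to 0.051 for the short-form probe, with directions turned by water pool 1 or 3 and, for the short-form probe, low drinker pool 2. Replicate numbers did not pair the pools. Same-numbered pools correlated at -0.09 to 0.18 over 29521 probes, with 3 of 18 pairs over 0.1, and 5 of 12 arrays correlated best with their own number. There were 3 arrays in a group, Ntf3, Gdnf, Ret and the upstream Ngfr probe were dim, and group and slide overlapped. Which of these limited the calls was not tested.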

Other observations

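Marker genes of other tissues, summed as multiples of each array's 75th percentile, differed between pools beside the members' values. The 5 pituitary genes, of which 3 were well above background on all arrays, summed to 3.25 to 12.4 in water pools and 6.90 to 9.40 in low drinkers, and to 0.911 to 3.37 in early and 3.93 to 6.44 in late high drinkers. The 6 thalamic genes summed to 7.78 to 8.97 in water pools, 6.40 to 13.6 in low, 5.81 to 13.8 in early high and 10.4 to 19.1 in late high drinkers. The 5 striatal genes summed to 4.12 to 4.47, 4.23 to 4.30, 3.59 to 4.51 and 3.49 to 3.83 in the same order, so that late high drinkers lay below all water and low drinker pools.

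The 3 blood genes summed to 120.4 to 148 in water pools, 96.4 to 148 in low, 104.7 to 132 in early high and 74.7 to 102 in late high drinkers, where the late high drinkers were below all water pools. Over all 12 pools the sum was 20.9 to 25.8 for vessels and mural cells, 134 to 147 for neurons, 1.25 to 1.46 for cortex and hippocampus and 0.494 to 1.23 for choroid plexus. Hypothalamic markers summed to 188 to 247. No explanation of these values was tested.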
